A study of Arabidopsis thaliana with 21 samples.

Results

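QQS, short for Qua-Quine Starch and listed as AT3G30720 on chromosome 3 of Arabidopsis thaliana, was followed across 7 genotypes altered in the synthesis of abscisic acid (ABA) or gibberellin (GA). The gene was found through the annotation of the array, which assigns 1 probe set to QQS and to no other gene, out of 13286 genes that have a probe set of their own. QQS was chosen with its signals on these arrays known, so its levels and differences are given as a description, with no test.

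QQS is known as an orphan gene, a gene that encodes a short protein with no recognisable relative in other species. As background, leaves with less QQS transcript accumulate more starch, and leaves with more of it shift carbon and nitrogen from starch towards protein, an activity linked to binding of the QQS protein to the transcription factor subunit NF-YC4. Transcript levels of QQS are also known to differ between natural accessions and between sister lines with the DNA methylation of its upstream region. ABA2 encodes a dehydrogenase of ABA synthesis, and GA20OX1 a GA 20-oxidase that makes precursors of active GA.

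Total RNA came from the aerial parts of soil-grown plants 21 days old, labelled as rosette tissue, and was hybridised to 21 single-channel Affymetrix arrays. There were 3 arrays for each of the mutants aba2 and ga20ox1, the overexpression lines ABA2-OE and GA20OX1-OE, the combined lines aba2/GA20OX1-OE and aba2/ga20ox1, and the wild type Col-0, whose background all other lines share. The mutant alleles, the promoters of the transgenes, the number of independent lines behind each and whether plants were pooled are all details that the labels leave out. The spread between arrays of a genotype may therefore be partly technical, and 3 arrays limit the precision of every value below.

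The arrays were alike in overall signal but not all clearly parted by genotype. The median signal ran from 130.4 to 187.5, and log2 signals of arrays of the same genotype correlated at 0.958 to 0.983. When each array was set against the genotype means of the other arrays, after centring each probe set, 14 of 21 were most like their own genotype. GA20OX1-OE replicate 2, which matters for QQS, was about as much like ga20ox1 (r = 0.41) and Col-0 (r = 0.39) as like its own genotype (r = 0.40). GA20OX1-OE replicates 1 and 3 were most like their own (r = 0.39 and 0.46), with r = 0.09 and 0.12 for Col-0. Among the others, aba2 replicate 1 was more like aba2/ga20ox1 (r = 0.52) than its own genotype (r = 0.30), and Col-0 replicate 3 more like GA20OX1-OE (r = 0.46, own 0.14). Col-0 replicate 2 (r = 0.38, own 0.16) and ga20ox1 replicate 1 (r = 0.36, own 0.08) were more like ABA2-OE. Of the rest, ga20ox1 replicate 3 was more like GA20OX1-OE (r = 0.50, own 0.13) and aba2/ga20ox1 replicate 2 more like aba2 (r = 0.53, own 0.49). The leaf markers RCA and LHCB4.1, the 2 of 8 listed that could be named, had mean log2 signals of 14.58 to 14.99 and 14.67 to 15.12 over the genotypes. The engineered genes ABA2 and GA20OX1 have no named probe set in the annotation, so the labels were not checked on them.

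QQS signal took high values in aba2, in aba2/GA20OX1-OE and on 2 of 3 GA20OX1-OE arrays, and low values elsewhere. In signal units, which are linear and were scaled by the authors to the same trimmed mean on every array, the aba2 arrays stood at 1819.7, 1716 and 1792, against 90.1, 82.1 and 219.6 on the Col-0 arrays. These groups did not overlap, and the aba2 arrays differed little from each other.

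In aba2/GA20OX1-OE the signals were 1174, 743 and 641, again above every Col-0 array. GA20OX1-OE held the highest signals of all, 2339 and 2125 on replicates 1 and 3, together with 102 on replicate 2, which lay inside the Col-0 range. The arrays of this line thus lay at both high and low signals.

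The other lines stayed low. ABA2-OE arrays had signals of 172, 147 and 309, ga20ox1 arrays of 207, 181 and 123, and aba2/ga20ox1 arrays of 107, 57.0 and 185. Each of these groups overlapped with Col-0. The aba2/ga20ox1 plants carry aba2 as the aba2 plants do, yet all of their arrays lay far below all aba2 arrays.

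**Figure D1:**
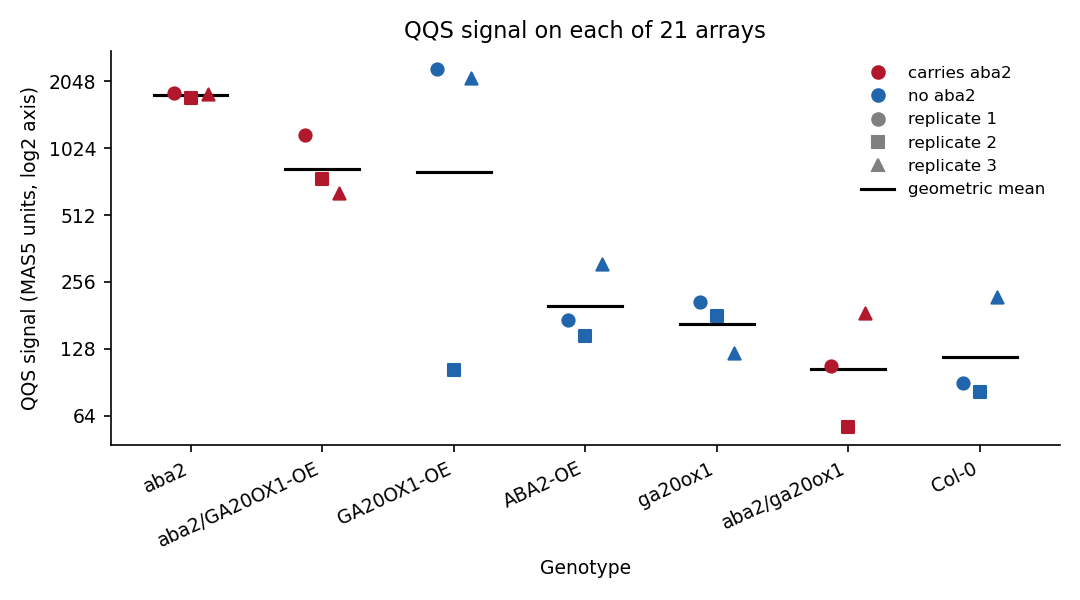
QQS signal (MAS5 units, on a log2 axis) for each array, by genotype, with the replicate number as the marker shape, red for genotypes carrying aba2 and blue for the others, and the geometric mean of 3 arrays as a bar. All aba2 and aba2/GA20OX1-OE arrays and 2 GA20OX1-OE arrays lie at 641 or more, and the other 13 arrays at 309 or less.

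Sorted by size, the 21 signals had a widest step between 309 and 641, a log2 difference of 1.05, with 13 arrays below and 8 above it. From the lowest array (57.0, aba2/ga20ox1 replicate 2) to the highest (2339, GA20OX1-OE replicate 1) the signal spanned 41.0-fold. The rank of QQS within each array, which does not depend on scaling, showed the same split. On the aba2 arrays 91.0% to 91.4% of the other probe sets had a lower signal, and on the aba2/GA20OX1-OE arrays 77.3% to 87.1%. The share was 93.6% and 92.8% on GA20OX1-OE replicates 1 and 3 and 43.0% on replicate 2. It was 51.6% to 65.8% in ABA2-OE, 44.4% to 57.8% in ga20ox1, 34.9% to 55.9% in aba2/ga20ox1 and 41.5% to 56.2% in Col-0.

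On the log2 scale the genotype means fell into an order with wide overlaps. The highest mean was that of aba2, 10.79 ± 0.04 (SD, n = 3 here and below), followed by aba2/GA20OX1-OE at 9.69 ± 0.46 and GA20OX1-OE at 9.64 ± 2.57. Then came ABA2-OE at 7.63 ± 0.57, ga20ox1 at 7.38 ± 0.39, Col-0 at 6.88 ± 0.78 and aba2/ga20ox1 at 6.70 ± 0.85. Of the neighbours in this order, aba2 and aba2/GA20OX1-OE were the pair whose arrays did not overlap. Their means differed by 1.11, and the pooled SD was 0.32. The other 5 neighbouring pairs overlapped. GA20OX1-OE and ABA2-OE differed by 2.01 with a pooled SD of 1.86, and the remaining 4 differences (0.05 to 0.50) were smaller than their pooled SD. The place of GA20OX1-OE rests on replicate 2, without which its mean would be the highest.

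Against Col-0, QQS was 15.1-fold higher in aba2 (log2 difference 3.92, SE 0.45) and 7.01-fold higher in aba2/GA20OX1-OE (2.81, SE 0.52). Both groups lay above all Col-0 arrays. The difference between GA20OX1-OE and Col-0 was 2.76 with an SE of 1.55, and 4.25 without GA20OX1-OE replicate 2. ABA2-OE differed from Col-0 by 0.76 (SE 0.56), ga20ox1 by 0.50 (SE 0.51) and aba2/ga20ox1 by -0.17 (SE 0.67). The size of these 3 differences depended on single arrays. That of ABA2-OE was 1.21 without Col-0 replicate 3, 0.50 without replicate 2 of Col-0 and 0.44 without ABA2-OE replicate 3. That of ga20ox1 was 0.31, 0.24 and 0.95 without Col-0 replicates 1, 2 and 3. That of aba2/ga20ox1 ran from -0.59 without aba2/ga20ox1 replicate 3 to 0.28 without Col-0 replicate 3. These 6 differences share the Col-0 arrays, of which replicate 3 was the highest at 219.6. In whole aerial parts, fewer cells with the transcript and less transcript per cell cannot be told apart.

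The ABA2 series was not ordered by dose. The mean log2 signal was 10.79 in aba2, 6.88 in Col-0 and 7.63 in ABA2-OE, so that QQS was lowest where ABA2 was unaltered, although ABA2-OE and Col-0 overlapped.

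The state of GA20OX1 went with different changes in QQS depending on ABA2. Within aba2, adding ga20ox1 left QQS 17.0-fold lower, at 6.70 ± 0.85 in aba2/ga20ox1 against 10.79 ± 0.04 in aba2, a log2 difference of -4.09 (SE 0.49). With wild-type ABA2 the same mutation went with 7.38 ± 0.39 in ga20ox1 against 6.88 ± 0.78 in Col-0. That difference of 0.50 (SE 0.51) came with overlapping arrays and has no clear direction. The difference in aba2 minus that with ABA2 was -4.59 (SE 0.71). Seen the other way, aba2 minus Col-0 was 3.92, while aba2/ga20ox1 minus ga20ox1 was -0.67 (SE 0.54), with -1.09 without aba2/ga20ox1 replicate 3 and -0.24 without replicate 2 of that line.

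The GA20OX1-OE transgene was also set against its parent in both backgrounds. QQS was 2.15-fold lower in aba2/GA20OX1-OE than in aba2 (log2 difference -1.11, SE 0.26), with no overlap, whereas GA20OX1-OE minus Col-0 was 2.76. The difference in aba2 minus that with ABA2 was -3.87 with an SE of 1.57, and -5.35 without GA20OX1-OE replicate 2. The aba2/GA20OX1-OE arrays had a mean 0.05 above that of GA20OX1-OE (SE 1.51), and the difference ran from -1.44 without GA20OX1-OE replicate 2 to 0.82 without GA20OX1-OE replicate 1. Within aba2, from loss through wild type to overexpression of GA20OX1, the means were thus 6.70, 10.79 and 9.69, with wild-type GA20OX1 highest. With wild-type ABA2 they were 7.38, 6.88 and 9.64.

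**Figure D2:**
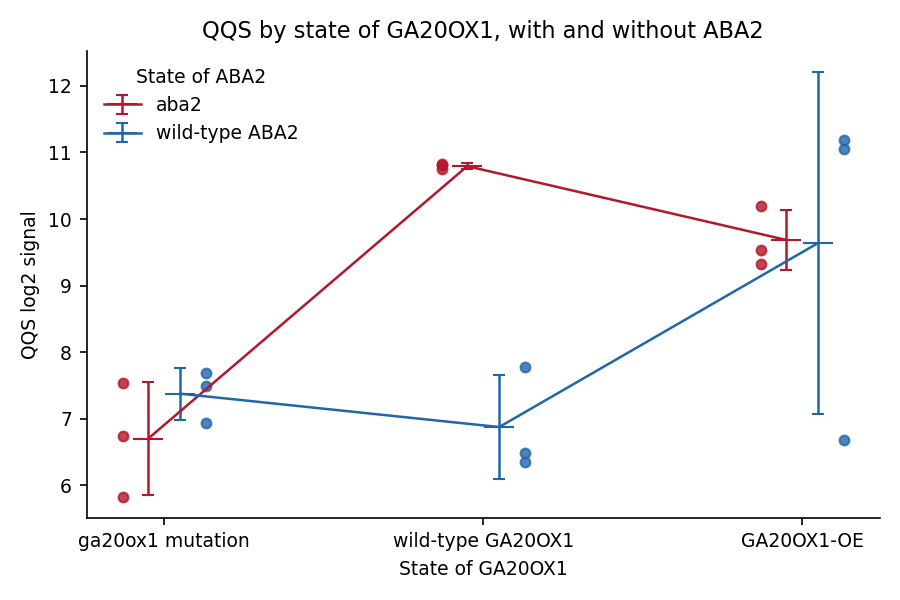
Mean log2 signal of QQS with SD (bars, n = 3) and each array (points) by the state of GA20OX1, for plants carrying aba2 (red) and with wild-type ABA2 (blue). In red the middle state is highest at 10.79, and in blue the right-hand state spans 6.68 to 11.19.

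The spread of QQS was wide between and within genotypes. Among the 15922 probe sets whose mean log2 signal lay above a low-signal bound of 5.26, which left out the lowest 30%, the SD of its 7 genotype means (1.62, median over probe sets 0.22) ranked 41 from the top. Its pooled SD within genotypes (1.11, median 0.26) ranked 37 from the top. Genotype accounted for 73.3% of the variance of QQS over the arrays, against a median of 47.7%. Leaving out GA20OX1-OE replicate 2 lowered the SD within genotypes to 0.56 and raised the share of variance between genotypes to 93.4%. That array was picked because its QQS signal lay far from its group, so these changes follow from the choice.

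The genotypes also differed in how far their own arrays lay apart. In GA20OX1-OE the SD of QQS was the 10th largest of all probe sets, and in aba2/ga20ox1 and Col-0 it was exceeded by 1.22% and 3.13% of them. In aba2 the SD of 0.04 was exceeded by 95.8% of probe sets.

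**Figure D3:**
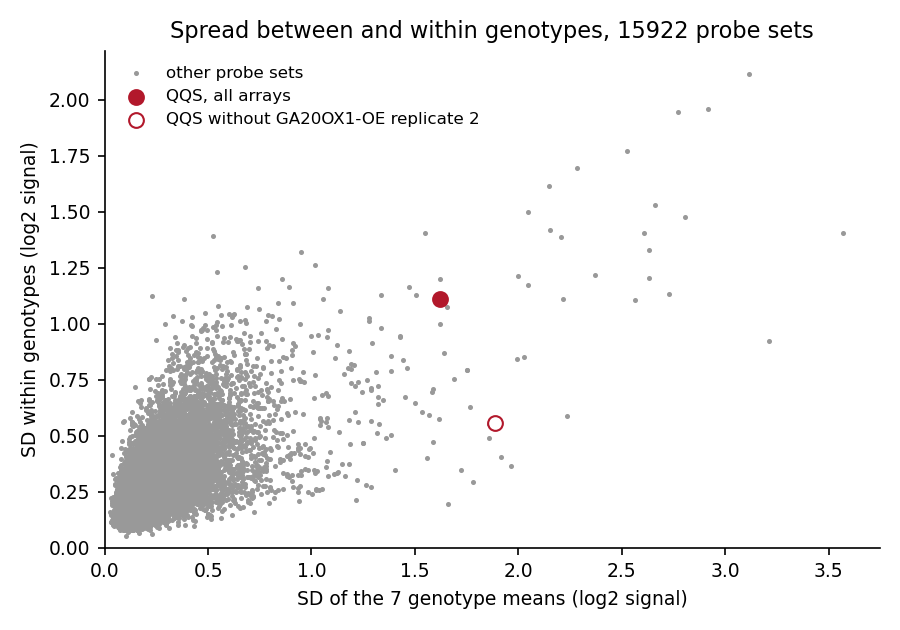
SD of the 7 genotype means (horizontal) against the pooled SD within genotypes (vertical), both in log2 signal, for 15922 probe sets (grey) and for QQS with all arrays (filled red) and without GA20OX1-OE replicate 2 (open red). QQS lies at 1.62 and 1.11 with all arrays, and its SD within genotypes is 0.56 without that array.

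GA20OX1-OE replicate 2 was examined beside its group. Its median signal was 156 against 168 and 167 on replicates 1 and 3, and the ratio of the 3′ to the 5′ control probe sets of GAPDH was 1.08 against 1.09 and 1.11. The same ratio was 11.9 against 12.3 and 12.2 for actin, and 2.46 against 3.16 and 1.96 for ubiquitin. Over all arrays the ratio was 8.59 or more for actin, 1.96 to 3.33 for ubiquitin and 0.92 to 1.69 for GAPDH. The controls thus differed in the 3′ bias they showed. GA20OX1-OE replicate 2 lay at least 2 (log2) from both other arrays of its genotype in 31 probe sets, 27 of them lower. Every array had such probe sets, from 8 in aba2/ga20ox1 replicate 2 to 39 in Col-0 replicate 1. QQS was the 6th farthest of the 31.

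Of the other 30 probe sets, 18 had all aba2 arrays above all Col-0 arrays, as 11.6% of all probe sets did. Probe sets below the low-signal bound in Col-0 passed the filter only through lines where they were high, which favours those high in aba2. The 18 cannot therefore be read against the 11.6%, and no enrichment was tested. Of these 18, 17 were lower on GA20OX1-OE replicate 2 than on both other arrays of the line and 1 was higher. The higher one was PDF1.2b, a plant defensin gene on a probe set of a type that can detect related transcripts, with 9.73 on replicate 2 against 7.58 and 7.49 on replicates 1 and 3. The genes below were chosen after their values were seen.

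AT1G68875 had log2 signals of 5.58, 8.42 and 8.71 in aba2 against 2.67, 4.30 and 3.45 in Col-0, and AT3G23770 stood at up to 7.36 in aba2 against 4.31, 4.16 and 4.49 in Col-0. On GA20OX1-OE replicates 1, 2 and 3 AT1G68875 had 6.33, -1.16 and 6.07, and AT3G23770 had 6.73, 0.16 and 5.64. ATA27, an anther-associated beta-glucosidase gene and the only flower marker of 6 listed that could be named, had 7.30, 3.47 and 6.06 on them. These 3 genes were picked from the probe sets that lay lower on GA20OX1-OE replicate 2. Their low signals on that array were thus fixed by the choice.

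In the lines carrying aba2, every array of ATA27 lay above its Col-0 arrays. It stood at 5.33, 9.42 and 8.92 in aba2, at 9.60, 10.38 and 9.91 in aba2/GA20OX1-OE and at 6.80, 6.37 and 7.90 in aba2/ga20ox1, against 1.72, 4.42 and 3.30 in Col-0. All Col-0 signals of these 3 genes lay below the low-signal bound, so no fold change or test is given for them. In aba2/ga20ox1 AT1G68875 stood at 7.07, 6.30 and 7.81 and AT3G23770 at 6.70, 6.58 and 6.81, above their Col-0 arrays, while QQS overlapped with Col-0 there at 6.74, 5.83 and 7.53. In ABA2-OE, where QQS was low, ATA27 stood at 6.18, 5.63 and 3.77. There AT3G23770 stood at 4.90, 5.66 and 5.11, above its Col-0 arrays, and AT1G68875 at 6.12, 5.65 and 2.85. Signals above Col-0 were thus not confined to lines carrying aba2. On aba2 replicate 1, ATA27 was lower (5.33) than on replicates 2 and 3 (9.42 and 8.92), while QQS lay between 10.74 and 10.83 on all of them. The part of flower tissue in the QQS signal was not tested.

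The genes whose profiles were most like that of QQS followed it loosely and over a much smaller range. By Pearson correlation of log2 signals over 21 arrays, among 8759 other probe sets with 1 gene, the closest were AT2G37150 (r = 0.74, Spearman's rho 0.77), AT2G28590 (0.73, rho 0.79), AT1G42480 (0.71, rho 0.65), AT1G72090 (0.70, rho 0.62) and AT5G48360 (0.70, rho 0.77). Their log2 signals ranged over 0.84 to 2.04, against 5.36 for QQS. AT2G37150 had its highest mean in aba2 as QQS had (6.28, against 5.63 in Col-0), and its r was 0.52 after quantile normalization. No probe set, named or not, had an r above 0.78.

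The most opposite profiles were those of the chitinase family gene AT2G43620 (r = -0.79, rho -0.67), the pseudogene AT3G29120 (-0.75, rho -0.67), STOMAGEN (-0.69, rho -0.56), AT5G11930 (-0.68, rho -0.64) and SPR1 (-0.67, rho -0.65). The probe set of AT3G29120 is of a type that can detect several transcripts. STOMAGEN encodes a secreted peptide that promotes stomata, and SPR1 a microtubule-associated protein. AT2G43620 had mean log2 signals of 6.29 in aba2 and 6.40 in aba2/GA20OX1-OE, against 7.21 in Col-0.

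The correlations differed from gene to gene within the 13 low and within the 8 high QQS arrays. For AT2G37150 r was 0.42 within the low and 0.72 within the high arrays, and for AT5G48360 it was 0.38 and -0.83. Within the 13 low arrays r ran from -0.18 to 0.42 for the 5 most similar genes, and within the 8 high arrays from -0.83 to 0.72. For the 5 opposite genes it ran from 0.03 to 0.22 and from -0.65 to 0.38. Over deviations from the genotype means r was 0.19 to 0.50 for the similar and -0.55 to -0.22 for the opposite genes. Without GA20OX1-OE replicates 1 and 3, the arrays farthest from the median of QQS, it was 0.62 to 0.72 and -0.81 to -0.57. The arrays share hybridisation and scaling, and the genes were picked for the size of r, so no p is given.

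**Figure D4:**
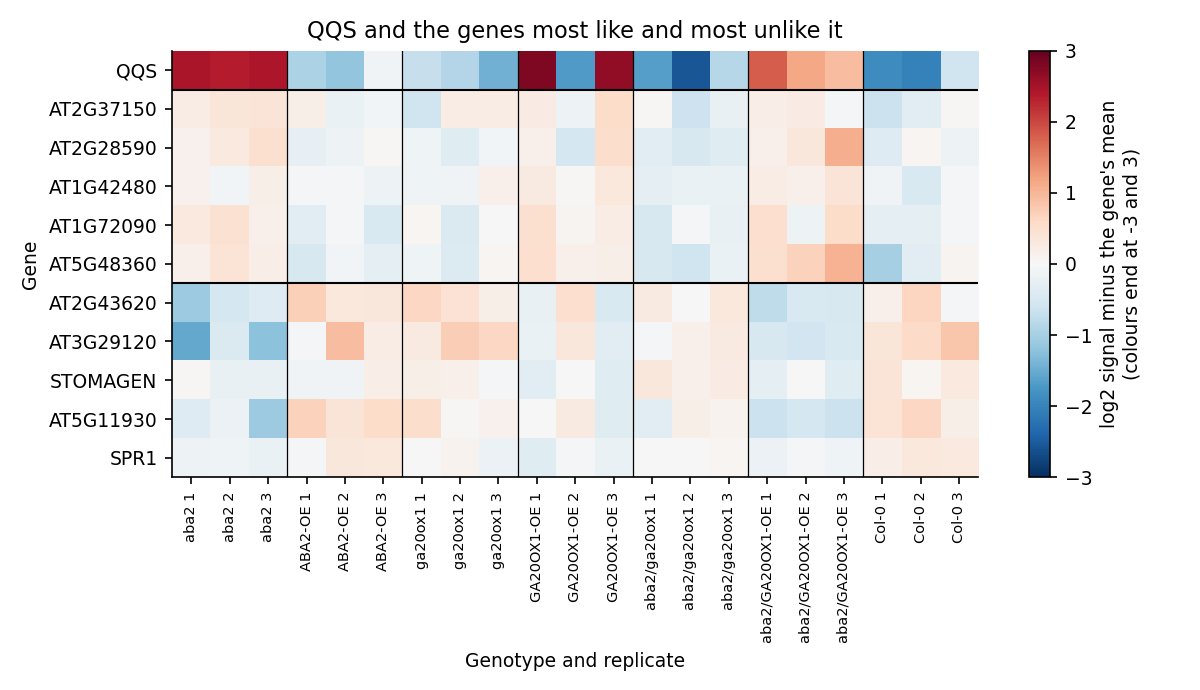
Log2 signal minus the gene's mean over 21 arrays (colour, ending at -3 and 3) for QQS (top row), the 5 genes most like it and the 5 most unlike it, by genotype and replicate. QQS spans 5.36 and none of the 10 other genes more than 2.48.

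Genes next to QQS on chromosome 3 were mostly too weak to compare with it. Of the 3 nearest protein-coding genes with a probe set of their own on either side, 4 lay below the low-signal bound in their mean, among them AT3G30730, which is 2 genes away, with log2 signals of -1.74 to 3.81. The basic leucine zipper gene bZIP42, 4 genes away on the other side, lay at 0.05 to 5.47. Its mean was 5.13 in aba2, 4.67 in GA20OX1-OE and 4.64 in aba2/GA20OX1-OE, against 3.12 in Col-0, and that of AT3G30820 was 4.31, 4.28 and 4.03 in these lines, against 2.80 in Col-0, all of them below the bound. In ABA2-OE, aba2/ga20ox1 and ga20ox1, where QQS was low, bZIP42 stood at 3.98, 3.90 and 2.35 and AT3G30820 at 3.53, 3.58 and 2.56. AT3G30730 had a mean of 1.02 in aba2, 2.73 in GA20OX1-OE and 2.42 in aba2/GA20OX1-OE, against 2.08 in Col-0. The 2 above the bound were AT3G30460, a neighbour 7 genes away with 5.94 to 6.74, and AT3G30390, 12 genes away with 11.69 to 12.69. In AT3G30460 the mean was 6.37 in aba2 and 6.64 in aba2/ga20ox1, against 6.33 in Col-0.

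Genes of starch metabolism were set beside QQS because of its known link to leaf starch. Of 43 listed genes of starch synthesis and breakdown, 7 could be named on the array and all 7 were tested with limma against Col-0, with a Benjamini-Hochberg adjusted p under 0.05 as the call. In aba2, where QQS was high, 0 of 7 were called, with 1 at an unadjusted p under 0.05, and the median log2 difference was 0.12 (0.05 over all probe sets, of which 5.03% were called). Of all 15922 probe sets, 2509 had an unadjusted p under 0.05 there. In GA20OX1-OE 0 of 7 were called, with 1 at an unadjusted p under 0.05 (median 0.14, and 0.09 over all, 0.0188% called). Over all 15922 probe sets the unadjusted p was under 0.05 for 2010 in that line.

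In ABA2-OE 0 of 7 were called and 4 had an unadjusted p under 0.05 (median -0.60, and -0.03 over all, 0.226% called). There 2738 of all 15922 probe sets had an unadjusted p under 0.05. Whether 4 of 7 exceeds that share was not tested. In ga20ox1 0 of 7 were called and 0 had an unadjusted p under 0.05 (median 0.25, and 0.03 over all, 0.0126% called). The unadjusted p was under 0.05 for 971 of all 15922 probe sets in ga20ox1. With the replicate number as a block, the calls over all probe sets were 7 in place of 3 in GA20OX1-OE and 211 in place of 36 in ABA2-OE.

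The calls fell in the combinations. AT5G39790, known as PTST and needed to bring granule-bound starch synthase to the starch granule, had a mean log2 signal of 8.04 in aba2/ga20ox1 against 8.83 in Col-0 and fell (-0.79, SE 0.16, limma adjusted p = 0.003). It was the only call of 7 there (median -0.20, and -0.0049 over all, 7.37% called). In aba2/GA20OX1-OE it also fell, at 8.22 against 8.83 in Col-0 (-0.61, SE 0.16, limma adjusted p = 0.019), a call that ended without aba2/GA20OX1-OE replicate 3 (0.082) or Col-0 replicate 3 (0.073), with a range of 0.0053 to 0.082 over the alternatives. AT5G39790 was thus called lower in a line with low QQS and in a line with high QQS. Its fall was not particular to the combinations. In ABA2-OE it was -0.60 (SE 0.16, limma adjusted p = 0.097) and in aba2 -0.47 (SE 0.16, limma adjusted p = 0.11), neither of them called. In GA20OX1-OE and ga20ox1 the differences were -0.08 and -0.06.

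The alpha-amylase gene AMY1 rose in aba2/GA20OX1-OE, at 6.89 against 5.82 in Col-0 (1.07, SE 0.32, limma adjusted p = 0.039). Its call ended without any 1 of 5 arrays of the 2 groups, all but aba2/GA20OX1-OE replicate 3, without the low-signal filter (limma adjusted p = 0.067) and after quantile normalization (log2 difference 0.74, adjusted p = 0.23). Over the alternatives run its adjusted p ranged from 0.027 to 0.23. With these 2 calls of 7 the median of the list was 0.21, and 0.11 over all probe sets, of which 8.62% were called.

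The other 5 starch genes were not called in any line. In aba2 the ADP-glucose pyrophosphorylase subunit genes APL3 and APL4 were not called, APL3 with a mean log2 signal of 7.44 against 7.45 in Col-0 and APL4 with a log2 difference of 0.50 (SE 0.38). There the branching enzyme gene SBE2.2 differed from Col-0 by -0.05, the glucan phosphorylating PWD by 0.12 and the disproportionating enzyme gene DPE1 by 0.12.

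Of the genes that bear on the known regulation of QQS few could be followed. Of 18 listed genes of DNA methylation and silencing 1 was named, DME, a DNA demethylase, through 3 probe sets. None of these was called in any of the 6 lines (limma, unadjusted p under 0.05 in ABA2-OE and in aba2/ga20ox1 for 1 of the 3). That probe set differed from Col-0 by -1.07 in ABA2-OE and -0.91 in aba2/ga20ox1 (SE 0.43 in both). The other DME probe sets differed by -0.04 and -0.58 in ABA2-OE and by 0.30 and -0.34 in aba2/ga20ox1. Of all 15922 probe sets, 2738 in ABA2-OE and 3180 in aba2/ga20ox1 had an unadjusted p under 0.05. In GA20OX1-OE the differences of the 3 DME probe sets from Col-0 were 0.37 to 0.73. NF-YC4 and the other 6 genes of the list of NF-YC subunits and SnRK1 kinases were not named, so they were not analysed here.

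Root markers were read beside QQS as a check on the tissue. PYK10, a beta-glucosidase gene of roots and seedlings, was called lower in aba2/GA20OX1-OE (mean log2 signal 8.68 against 9.78 in Col-0, -1.10, SE 0.25, limma adjusted p = 0.0079, and 0.053 with a difference of -0.67 without aba2/GA20OX1-OE replicate 3), and in aba2 it differed by -0.12. In ga20ox1 PYK10 differed by 0.90 (SE 0.25, limma adjusted p = 0.36). Its differences were 0.52 in GA20OX1-OE, 0.21 in aba2/ga20ox1 and -0.50 in ABA2-OE, none of them called. EXPA18 was not called in any line, with log2 differences of 1.02 to 1.75 from a Col-0 mean of 4.16 that lay below the low-signal bound, EXPA7 and AT4G26010 lay below the low-signal bound, and COBL9 was not named. The part of root tissue in the QQS signal was not tested.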

How the data were processed

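The authors deposited 1 table of MAS5 signals (unit intensity, linear scale) for 22810 probe sets on 21 arrays. MAS5 is named in the submitters' processing notes, while its version, detection calls and the raw scans were not used here. On every array the mean without the lowest and highest 2% was 500.0 to 500.1, so the deposited intensity values had been scaled before, and QQS values depend on that scaling. After leaving out 64 control probe sets, log2 signals were taken as they stood, without further normalization. Probe sets whose mean log2 signal fell in the lowest 30% (bound 5.26) were left out of tests, which kept 15922, of which 8760 had 1 gene. The supplied array annotation listed 14016 probe sets, 13436 with 1 gene in the RefSeq gene table (TAIR10.1).

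Genotypes were set against Col-0 by limma (version 3.58.1, run under R 4.3.3), using lmFit on 7 genotype means over all 21 arrays and eBayes with a trend on signal, and p-values were Benjamini-Hochberg adjusted over all probe sets tested. The fit was tested on simulated data. Other values and figures used Python 3.11.15, pandas 2.3.3, numpy 2.4.6 and matplotlib 3.10.9. Differences of QQS are those of group means, with SE from both groups' own variance. Fitted alternatives were quantile normalization, a pseudocount of 20.1, no filter or a 50% filter, no trend, the replicate number as a block and each array left out.

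Deviations from group means correlated above 0.1 for all 3 same-numbered pairs with Col-0 in 2 of 6 lines, GA20OX1-OE and aba2/GA20OX1-OE. The meaning of a shared number is not stated in the labels.

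QQS and the gene lists were chosen with earlier results of these data known. Named were QQS, the 5 genes of highest and the 5 of lowest Pearson correlation with it, the 3 nearest protein-coding genes with a probe set on either side, and in each list the called members, up to 4 a comparison. Sequences of the gene, its promoter and the probes were not used here.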

Additional observations from a re-analysis of the deposited data

Results flagged for a closer look

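The ga20ox1 mutation went with much lower QQS in aba2 and with no clear difference where ABA2 was wild-type. All 3 aba2/ga20ox1 arrays lay below the aba2 mean and all 3 ga20ox1 arrays above the Col-0 mean, and the difference in aba2 minus that with ABA2 was -4.59 on the log2 scale. The ga20ox1 and Col-0 arrays overlapped, with a difference of 0.50 (SE 0.51), and Col-0 replicate 3 (7.78) lay above all ga20ox1 arrays. The difference between the backgrounds was not tested, since QQS was chosen with its values known.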

How the results depend on the processing

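Of 120 recomputed values of the 12 QQS differences, 115 kept their sign and 119 moved by less than the SD between replicates. The exception was the interaction of aba2 with GA20OX1-OE, which was -5.35 without GA20OX1-OE replicate 2 and -3.10 without replicate 1, its range over the arrays left out. In a difference of 2 genotypes, leaving out 1 of 3 arrays cannot move the value by more than that SD. The count of 119 is therefore no measure of how stable these differences are. The 5 values of other sign belonged to aba2/ga20ox1 minus Col-0 and aba2/GA20OX1-OE minus GA20OX1-OE, whose arrays overlap. The replicate block left every QQS difference as it was, which was fixed in advance, since every genotype has every replicate number. The cause of the changes in the counts below was not tested. Over all probe sets, leaving out each array of the 2 genotypes compared in turn gave 491 (without aba2 replicate 3) to 739 calls in aba2, with 504 without aba2 replicate 2 and 524 without Col-0 replicate 1. In ABA2-OE it gave 3 (without Col-0 replicate 3) to 242 (without Col-0 replicate 2), and 4 to 18 without any 1 of the other ABA2-OE and Col-0 arrays. In ga20ox1 it gave 0 (without ga20ox1 replicate 2 or Col-0 replicate 3) to 5 (without ga20ox1 replicate 1). In GA20OX1-OE it gave 0 (without replicate 1 or 3 of GA20OX1-OE or of Col-0) to 7 (without GA20OX1-OE replicate 2). It gave 657 (without aba2/ga20ox1 replicate 3) to 1060 in aba2/ga20ox1 and 822 (without Col-0 replicate 1) to 1187 in aba2/GA20OX1-OE, with 839 without aba2/GA20OX1-OE replicate 3. Leaving out 1 of the 15 arrays of the other genotypes, which share the estimate of spread, gave 756 to 844 in aba2, 16 to 80 in ABA2-OE, 1 to 3 in ga20ox1, 0 to 5 in GA20OX1-OE, 1089 to 1241 in aba2/ga20ox1 and 1226 to 1450 in aba2/GA20OX1-OE. The 80 came without ga20ox1 replicate 1, and the 0 also without aba2 replicate 2 or any 1 array of ABA2-OE, ga20ox1 or aba2/ga20ox1. In ABA2-OE, 9 were called without the trend and 211 with the replicate block. In ga20ox1, 1 was called after quantile normalization, 1 without the filter and 1 with the 50% filter. In GA20OX1-OE, 0 were called without the filter, 0 without the trend and 7 with the replicate block. With all arrays, limma gave an unadjusted p under 0.05 to 971 probe sets in ga20ox1 and 2010 in GA20OX1-OE. Of the starch genes, 1 or 2 (without Col-0 replicate 2) were called in aba2/ga20ox1 and 0 (without Col-0 replicate 3) or 1 in aba2/GA20OX1-OE when an array of the genotypes compared was left out. In aba2/GA20OX1-OE 1 was called after quantile normalization, 1 without the filter and 1 with the 50% filter, which left AMY1 untested. The replicate block changed no call of a starch gene. Signals near the low-signal bound of 5.26 limit statements on the weakest genes, and 3 arrays a genotype limit all others.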
